A study of Homo sapiens with 26 samples.

Results

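The S100 gene cluster of chromosome 1 (1q21) was described through 2 histone marks in HCT116, a human colorectal cancer cell line with intact p53. Its members were the 10 listed genes S100A1, S100A2, S100A3, S100A4, S100A6, S100A10, S100A11, S100A13, S100A14 and S100A16, out of 20162 protein-coding genes in the GRCh37 annotation. Every H3K27ac or H3K4me1 peak that overlapped a member's gene body or its flanks of 20 kb was taken, which gave 26 of 87603 merged H3K27ac regions and 24 of 110276 merged H3K4me1 regions. The other 7 S100 genes of 1q21 (S100A5, S100A7, S100A7A, S100A7L2, S100A8, S100A9 and S100A12) and 4 S100 genes of other chromosomes were read in the same way for comparison. The rule lists genes by name.

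S100 proteins are small calcium-binding proteins with EF-hand motifs that mostly act as dimers. On binding calcium they expose a surface that holds target proteins such as annexins, myosin and p53, and some of them are secreted and signal through receptors such as RAGE. Their genes lie side by side on both edges of the epidermal differentiation complex, a gene-dense domain that is used mainly in skin keratinocytes. H3K27ac marks active promoters and enhancers, and H3K4me1 marks enhancers that are primed or active.

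WT cells were treated with DMSO as vehicle (0 h) or, for 1 h or 10 h, with Nutlin-3a, a small molecule that frees p53 from HDM2. WT has lists of both marks, and HCT116_RAD21, a derivative named for a subunit of the cohesin ring, has lists of H3K27ac alone, at 0 h and 1 h. The study's methods describe this derivative as carrying an auxin-inducible degron on RAD21 and as treated with the auxin analogue 5-Ph-IAA ahead of Nutlin-3a. No label mentions the analogue, and peak lists cannot show a protein's loss, so the neutral name RAD21 line is used. With 2 lists in each of 8 groups there were 10 H3K27ac and 6 H3K4me1 lists. The study describes its replicates as biological. Whether the 2 came from separate cultures is not stated for these lists. The p-values below rest on the spread between the 2 lists of a group, pooled over all groups of the mark.

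The lists held 31640 to 49127 H3K27ac peaks and 84492 to 92943 H3K4me1 peaks, and no read counts, so sequencing depth is unknown. Peak names lacked the word input in 3 H3K27ac lists (WT 0 h replicates 1 and 2 and WT 1 h replicate 1) and carried it in the other 7 and in all H3K4me1 lists. The highest fold enrichment of any peak was 30.2 to 31.5 in those 3 lists and 103 to 296 in the 7. Both WT 0 h lists have one form of name, and both WT 10 h and all RAD21 lists have the other. The promoters of 6 of 7 epithelial markers (EPCAM, CDH1, KRT8, KRT18, KRT19 and CLDN4) carried H3K27ac in every list, whereas VIL1 carried none and neither did any of 6 markers of other cell types. A further listed marker of other cell types, PECAM1, was not read because no promoter was found for it in the annotation used.

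The members were marked together and most of their S100 neighbours were not. The list was chosen with earlier results of these data known, so this contrast is a description. Several members share a peak, so their promoters are not independent. All 10 member promoters (1000 bp upstream to 200 bp downstream of a start site) carried a peak in both WT 0 h lists of H3K27ac, where 60.1% of all protein-coding genes did. They did so too in both WT 0 h lists of H3K4me1, where the share of all genes was 66%. Over all lists, H3K4me1 was called at 10 of 10 member promoters, and H3K27ac at 10 except in WT 1 h replicate 1, which missed S100A14. S100A8 and S100A9, which form the calprotectin of neutrophils, S100A12, a further neutrophil protein, and S100A7, S100A7A and the pseudogene S100A7L2 of the psoriasin group had no promoter peak of either mark in any list. S100A7 and S100A7A are near-identical copies, so reads that map to both may have been lost there.

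The unmarked genes were also bare around their promoters. No H3K27ac peak touched the gene body or the 20 kb flanks of S100A7, S100A7A, S100A7L2, S100A8, S100A9 or S100A12 in any of 10 lists, whereas H3K27ac covered between 3.80% (S100A10) and 57.5% (S100A3) of the members' windows. H3K4me1 covered 24.3% to 86.5% of the members' windows. It covered 1.63% to 4.43% of the window of S100A7, at most 2.31% of that of S100A9, and none of those of S100A8 and S100A7A. The windows of neighbouring genes overlap, so they are not independent.

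**Figure D1:**
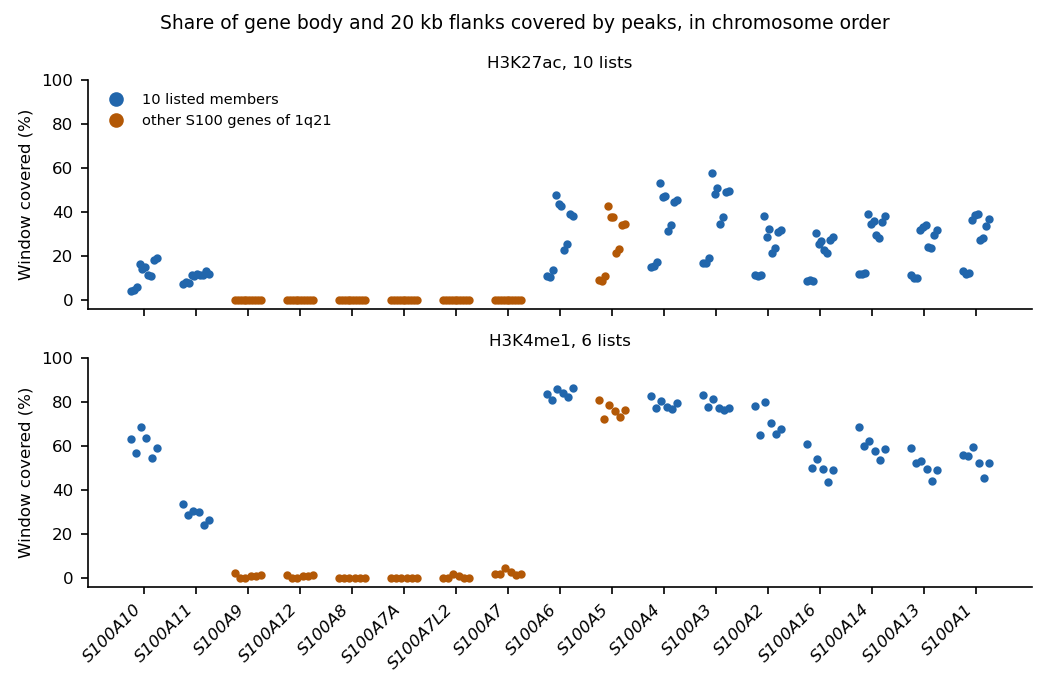
Percent of each S100 window (gene body and 20 kb on each side) covered by peaks, 1 point per list, genes in chromosome order, for H3K27ac (above) and H3K4me1 (below). The 6 genes from S100A9 to S100A7 lie at 0 for H3K27ac and at or under 4.43% for H3K4me1, between 2 marked blocks.

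The unmarked genes lie between the marked blocks. From the end of the S100A11 window to the start of the S100A6 window, 1446.69 kb (152040384 to 153487074), the lists held 2 to 7 H3K27ac peaks. That is 1.38 to 4.84 per Mb, where the whole lists held 10.2 to 15.9 per Mb. H3K4me1 was thinner than elsewhere as well, with 13.8 to 18.7 peaks per Mb against 27.3 to 30.0. Of 43 genes of the epidermal differentiation complex, 0 had an H3K27ac promoter peak in any list. H3K4me1 was called at 1 to 3 of them (TCHHL1 and LCE1E in 4 lists each, LCE1C in 2, LCE1F and PGLYRP4 in 1), where 66.1% to 68.6% of all coding genes had such a peak.

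S100A5, known mainly from olfactory tissue, sits inside the marked block and was the exception among the other genes. Its promoter had no H3K27ac peak in the 3 lists named without input and a peak in all 7 others, at percentile 79.8 in WT 1 h replicate 2, 61.4 and 49.2 at 10 h, 12.4 and 37.1 in the RAD21 line at 0 h, and 39.4 and 33.2 there at 1 h. The value of 79.8 belongs to 1 peak of 5973 bp that also reached the S100A4 promoter. H3K4me1 covered S100A5 in every list, within the peak that it shared with S100A6, S100A4 and S100A3. Its call went with the form of the peak names, and treatment and form cannot be told apart at 10 h.

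S100 genes on other chromosomes had no H3K27ac promoter peak in any list. This held for S100P, known from placenta and many carcinomas, for S100B of astrocytes and for S100G and S100Z. S100P and S100Z had weak H3K4me1 peaks in all 6 lists, at percentiles 18.0 to 47.3 and 16.8 to 48.8, and S100B in 3 lists. S100G had none.

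The start sites searched at most unmarked genes of 1q21 shared a sequence feature that was not found at those searched at the members. TATAAA was searched on both strands within 200 bases upstream of each gene's most upstream start site among transcripts tagged basic. It was found in 5 of the 6 other coding S100 genes of 1q21 (all but S100A5), in 0 of 10 members, and in 7.94% of 20162 promoters. Only that start site was searched, although several members have more than 1 tagged basic, such as S100A2 with 6, and peaks were read at all of those. The annotated genes S100A11 and S100A13 reach further upstream, to 152020383 and 153603836, and those ends were not searched. The 60 bases before each start site are printed in the direction of transcription, with the motif in capitals.
S100A9, chr1:153330270-153330329: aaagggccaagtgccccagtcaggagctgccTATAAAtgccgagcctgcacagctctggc
S100A12, chr1:153348098-153348157, − strand: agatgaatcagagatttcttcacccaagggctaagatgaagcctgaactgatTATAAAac
S100A8, chr1:153363550-153363609, − strand: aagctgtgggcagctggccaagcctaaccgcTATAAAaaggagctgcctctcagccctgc
S100A7A, chr1:153388936-153388995: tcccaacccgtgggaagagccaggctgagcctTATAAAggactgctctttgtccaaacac
S100A7, chr1:153433128-153433187, − strand: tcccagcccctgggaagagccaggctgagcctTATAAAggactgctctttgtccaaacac

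In 4 of these the motif begins 28 or 29 bases before the start site, and in S100A12 it begins 8 bases before it. The observed over expected CpG ratio around the same start site of each member ran from 0.0862 (S100A14) to 0.795 (S100A10). That of the others ran from 0.0516 (S100A12) to 0.217 (S100A5). The 2 ranges overlap. These are descriptions of the reference sequence.

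Among the marked members the strength of H3K27ac differed. Strength is given as the percentile of the promoter peak's −log10 p-value among all peaks of its own list, so a higher percentile is a stronger peak within that list. Percentiles also depend on how many weak peaks a list holds. The WT 0 h lists held 33976 and 32739 peaks and the WT 10 h lists 49127 and 46638. Percentiles of different lists are therefore not on the same scale. By the median over the lists with a call (10 for each member, 9 for S100A14) S100A2 came first (96.3), then S100A10 (91.3), S100A1 and S100A13 with 1 shared peak (85.4), S100A6 (83.4), S100A16 (82.1), S100A11 (80.1), S100A4 (77.1), S100A14 (67.7) and S100A3 (61.2). The ranges of neighbours in this order overlapped throughout, and the order depended on the form of the peak names. Among the 7 lists named with input the medians were highest for S100A2 (97.5), S100A10 (93.1) and S100A6 (84.6) and lowest for S100A3 (69.4). Among the 3 others they were highest for S100A2 (88.9), S100A1 and S100A13 (86.5) and S100A6 (82.0), with S100A10 at 81.8, and lowest for S100A14 (29.0, over 2 calls).

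S100A2, an epithelial S100 protein that binds p53, ranked at percentiles 88.9 and 89.8 at WT 0 h, 73.2 and 97.1 at WT 1 h, 98.5 and 98.6 at WT 10 h, 94.5 and 95.6 in the RAD21 line at 0 h, and 97.7 and 97.5 there at 1 h. Its fold enrichment was 4.89, 5.23 and 3.45 in the 3 lists named without input and 51.0 to 128 in the other 7. The 3 lists named without input were the lowest by both measures, and the WT 1 h replicates lay on either side of that split.

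S100A1, a calcium sensor of heart and muscle, and S100A13, which takes part in the release of FGF1 and interleukin 1 alpha, start close together on opposite strands under 1 peak. That peak ranked at 86.5 and 86.2 at WT 0 h, 86.5 and 84.7 at 1 h, 90.2 and 89.7 at 10 h, 75.6 and 83.8 in the RAD21 line at 0 h, and 82.2 and 80.5 there at 1 h. The WT 0 h and 1 h lists overlapped, and the RAD21 lists lay below every WT list. The marks of the 2 genes cannot be separated in these lists.

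S100A6 (calcyclin) ranked at 80.7 and 82.0 at WT 0 h, 82.7 and 91.2 at 1 h, 94.1 and 93.3 at 10 h, and 80.0 to 84.6 in the 4 RAD21 lists. S100A3, a protein of the hair cuticle, ranked at 6.55 and 37.5 at WT 0 h, and reached 33.0 and 70.4 at 1 h and 72.3 and 72.0 at 10 h. S100A14, an epithelial member, ranked at 25.3 and 32.6 at 0 h, had no call and 63.6 at 1 h, and ranked at 74.6 and 72.7 at 10 h. In each of these 3 genes the 10 h lists were above both 0 h lists, and for S100A3 and S100A14 every list named with input was above every list named without it.

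S100A4, a metastasis-associated partner of non-muscle myosin, spanned 55.5 to 87.9 over the 10 lists, and S100A16 spanned 59.0 to 90.1. Both were lowest in WT 1 h replicate 1 and highest at WT 10 h, and in both every list named with input was above every list named without it.

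**Figure D2:**
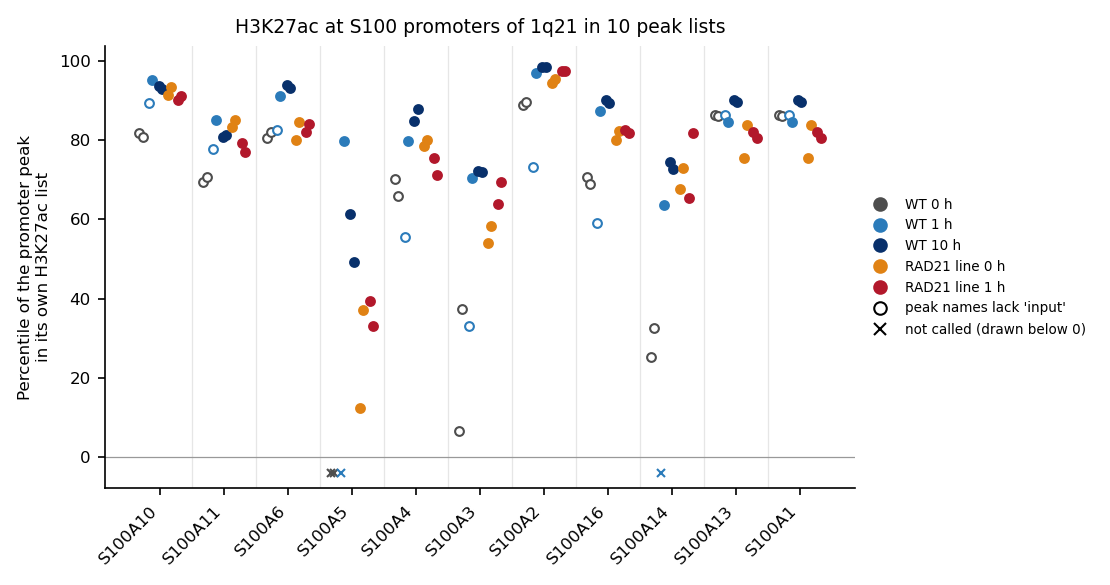
Percentile of the H3K27ac promoter peak in its own list for 11 S100 genes, 2 points per group, with open symbols for the 3 lists whose peak names lack input and crosses for promoters with no call. S100A2 and S100A10 lie highest. Open symbols lie below the filled ones at S100A2, S100A3, S100A4, S100A10, S100A14 and S100A16.

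The H3K4me1 of the members formed a few long blocks. A single peak of 23059 to 24239 bp ran over S100A6, S100A5, S100A4 and S100A3 in each of the 6 lists, at percentiles 99.1 to 99.5. S100A14 and S100A16 shared a peak of 12568 to 13923 bp, and S100A10 lay in one of 10673 to 14755 bp. These, with S100A2, ranked at or above percentile 98.7 in every list. S100A11 (80.3 to 93.4) and S100A1 with S100A13 (87.2 to 97.1) had shorter peaks and lower ranks.

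H3K27ac was not laid over all of this H3K4me1. At 0 h, 18 member regions had H3K4me1 in both lists, and 10 of them overlapped H3K27ac called in both lists, 1 in 1 list and 7 in neither. At 10 h the numbers were 17, 11, 0 and 6. The share with both marks was 55.6% at 0 h, 58.8% at 1 h and 64.7% at 10 h, where it was 32.6%, 31.5% and 35.3% over all H3K4me1 regions. Overlap was counted from 1 bp, so a longer region overlaps more easily. Member regions ran up to 24445 bp, where the median peak of the H3K4me1 lists was 1122 to 1269 bp. The part of length in the shares was not tested. The H3K27ac lists of 0 h and 10 h differ in form of peak name and in size (33976 and 32739 peaks against 49127 and 46638). Time cannot be told apart from these in the shares. Of the 26 H3K27ac regions, 8 overlapped a promoter, and 7 of those were called in all 10 lists. The 10 intergenic regions were called in 1 to 9 lists.

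**Figure D3:**
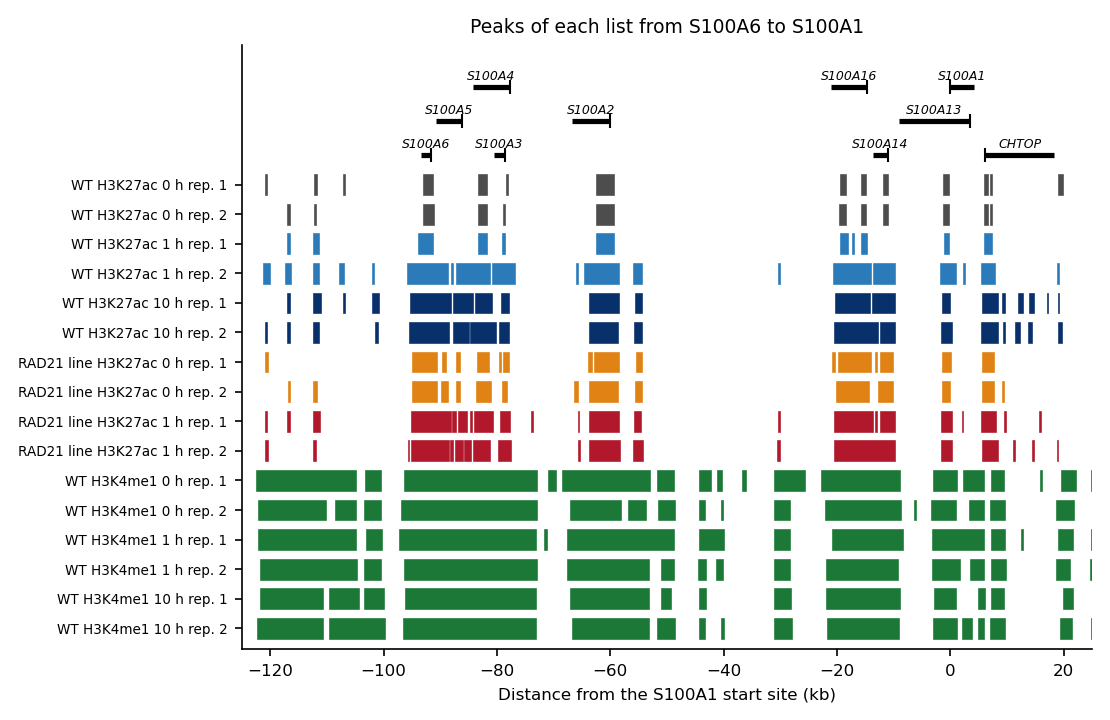
Peaks of the 16 lists from 125 kb before to 25 kb after the S100A1 start site (distance in kb, 1 row per list), with coding genes above and their start sites as ticks. H3K27ac peaks cluster at the S100 starts inside longer H3K4me1 peaks, and the peaks of the 3 lists named without input (the top 3 rows) are the narrowest.

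Rank changes were tested with limma on normal scores of the ranks by −log10 p-value in each list, over the 11677 promoters or 18757 regions with H3K27ac in all 10 lists. Changes below are on this normal-score scale, with the SE of the fit and Benjamini-Hochberg adjusted p-values. This left 9 member promoters (all but S100A14, missed in 1 list) and 8 member regions. The spread of each promoter or region was shared by all H3K27ac groups. It includes the WT 1 h pair, whose lists differ in form of peak name. For S100A2 at 10 h against 0 h in WT the SE was 0.387, and 0.197 with form as a term.

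At 1 h of Nutlin-3a in WT, 2 of 9 member promoters rose, S100A10 and S100A11, where 37% of all promoters tested were called in either direction. S100A10, which binds annexin A2 without needing calcium, ranked at 81.8 and 80.9 at 0 h and at 89.5 and 95.4 at 1 h. S100A11, a partner of annexin A1, ranked at 69.4 and 70.8 at 0 h and at 77.9 and 85.2 at 1 h. Both 1 h lists were above both 0 h lists for each gene. Over all lists, S100A10 ranked at 80.9 to 89.5 in the 3 named without input and at 90.3 to 95.4 in the other 7. For S100A11 these ranges overlapped (69.4 to 77.9 and 77.1 to 85.2). The change was 0.80 ± 0.156 for S100A10 (adjusted p = 0.00264) and 0.529 ± 0.133 for S100A11 (adjusted p = 0.0099). Over the 9 members the median change was 0.128, against −0.0144 over all promoters. S100A1 and S100A13 changed by −0.145 ± 0.178 (adjusted p = 0.551).

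Without WT 1 h replicate 2, this comparison holds only lists named without input, and 1 h rests on 1 list. The spread of that list is assumed to be that of the other groups, which include lists named with input. The changes were then 0.588 for S100A10 and 0.424 for S100A11. Without WT 0 h replicate 1 the adjusted p of S100A11 was 0.0754, and without WT 1 h replicate 1, whose form differs from that of replicate 2, 7 of 10 member promoters passed, of 50.4% of all. With ranks by fold enrichment the changes were 0.958 ± 0.606 and 0.803 ± 0.265 with adjusted p-values of 0.387 and 0.157, and only 9 of 11677 promoters passed in all. The form of the peak names could also be fitted as a term. Both forms occur in WT 1 h alone, so the term is the difference between its replicates 2 and 1, and the WT change at 1 h then rests on replicate 1. In that fit S100A2 (−0.977 ± 0.139), S100A4 (−0.632 ± 0.174) and S100A16 (−0.55 ± 0.142) fell at 1 h too, with adjusted p-values of 1.69e-05, 0.00579 and 0.00384, and 43.5% of all promoters passed.

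The promoter sequences of S100A10 and S100A11 are printed because these were the members called at 1 h. The 200 bases before the most upstream start site among transcripts tagged basic are given in the direction of transcription, from GRCh37, with the GC box GGGCGG in capitals. For S100A11 that start site is 152009480, and the annotated gene reaches further upstream, to 152020383. A GC box on either strand was present in 50.8% of all promoters of this length.
S100A10, chr1:151966336-151966535, − strand: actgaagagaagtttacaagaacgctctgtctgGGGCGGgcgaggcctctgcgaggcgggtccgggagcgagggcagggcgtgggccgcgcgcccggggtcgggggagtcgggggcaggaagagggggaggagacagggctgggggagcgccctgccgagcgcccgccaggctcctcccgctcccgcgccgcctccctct
S100A11, chr1:152009481-152009680, − strand: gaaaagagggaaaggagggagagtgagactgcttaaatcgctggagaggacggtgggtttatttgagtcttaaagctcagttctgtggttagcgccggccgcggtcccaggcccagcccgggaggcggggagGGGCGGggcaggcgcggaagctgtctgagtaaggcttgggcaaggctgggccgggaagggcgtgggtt

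These 2 genes had the highest CpG ratios of the cluster, 0.795 and 0.622, beside 0.557 for S100A6 and at most 0.369 for the other members. The median of all promoters was 0.707, and the 2 genes lay at percentiles 65.7 and 40.4 of all promoters. A GC box was also found at S100A3, which was not called at 1 h, and at the unmarked S100A9.

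The same 2 genes were read in the RAD21 line. S100A10 ranked at 91.5 and 93.4 there at 0 h and at 90.3 and 91.2 at 1 h, and S100A11 at 83.3 and 85.1 and then at 79.5 and 77.1. Both 1 h lists were below both 0 h lists for each gene. S100A11 fell by 0.432 ± 0.133 (adjusted p = 0.0283), the only one of 9 member promoters called, where 31.9% of all were. The change of S100A10 was −0.175 ± 0.156 (adjusted p = 0.421). All 4 lists of this line have the same form of peak name. The call of S100A11 was lost when any 1 of them was left out, with adjusted p-values of 0.0549 to 0.194. The form as a term cannot move these changes and only lowered their SE, with which S100A4 (−0.414 ± 0.142) and S100A2 (0.453 ± 0.114) passed as well, of 48.6% of all promoters.

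To compare the lines directly, the WT change at 1 h was subtracted from that of the RAD21 line in the same fit. It was −0.975 ± 0.22 for S100A10 (adjusted p = 0.00726) and −0.961 ± 0.188 for S100A11 (adjusted p = 0.00345), and these were the 2 member promoters of 9 called, where 29% of all promoters were. Without WT 1 h replicate 2, which makes each change a comparison within 1 form of name, it was −0.762 and −0.856, and WT 1 h then rests on 1 list. With the form as a term, S100A2 (1.43 ± 0.18) and S100A16 (0.62 ± 0.184) also passed, in the other direction, of 41.8% of all promoters. The S100A10 and S100A11 calls held without any 1 list, with adjusted p-values up to 0.0367, and were lost with ranks by fold enrichment, where the differences were −1.20 ± 0.857 and −1.22 ± 0.375 with adjusted p-values of 0.584 and 0.218. In that setting 1 of 11677 promoters passed. Of 6 epithelial marker promoters tested, 3 also passed below 0, with a list median of −0.836, and their part in the result was not tested. For S100A1 and S100A13 the difference was 0.24 ± 0.252 (adjusted p = 0.504).

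**Figure D4:**
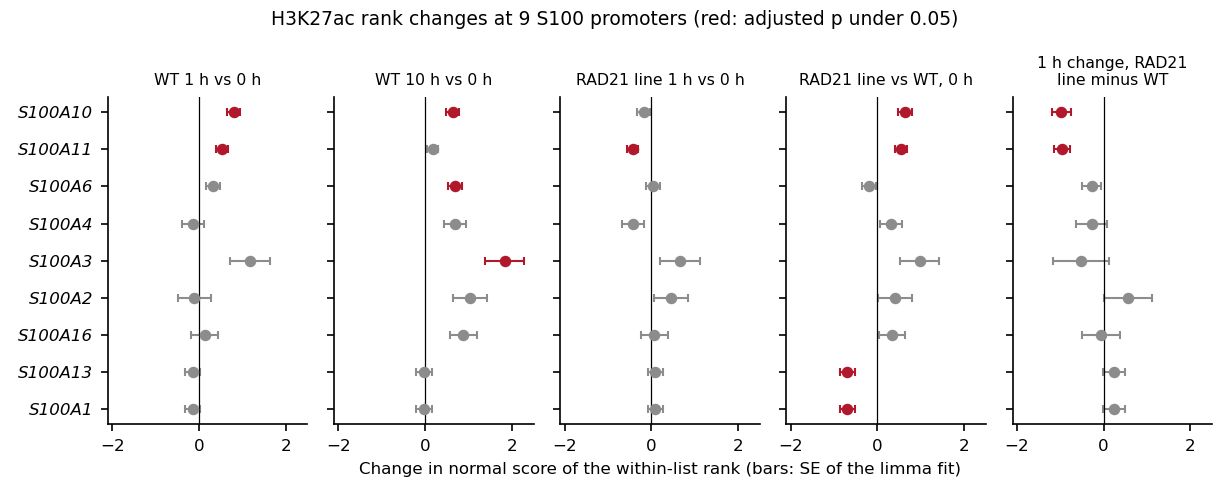
Change in the normal score of the H3K27ac rank at 9 S100 promoters in 5 comparisons (points, with bars for the SE of the limma fit, red where the adjusted p was under 0.05). S100A10 and S100A11 lie right of 0 in WT at 1 h and left of 0 in the difference between the lines.

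At 10 h against 0 h in WT, 3 of 9 member promoters rose, where 10.4% of all promoters were called. They were S100A3 by 1.83 ± 0.457 (adjusted p = 0.0291), S100A6 by 0.681 ± 0.16 (adjusted p = 0.0231) and S100A10 by 0.635 ± 0.156 (adjusted p = 0.0273). S100A2 (1.03 ± 0.387, adjusted p = 0.107), S100A16 (0.883 ± 0.306, adjusted p = 0.0863) and S100A4 (0.693 ± 0.255, adjusted p = 0.102) did not pass. S100A1 and S100A13, whose percentiles were higher at 10 h, changed by −0.0292 ± 0.178 (adjusted p = 0.927). The member median was 0.681 and the median of all promoters −0.0347. The form of the peak names differs between all 10 h and all 0 h lists, and with it as a term none of the 3 passed. The term comes from 1 list of each form, the WT 1 h replicates, so the signs it turns rest on that pair, such as S100A2 at −0.708 ± 0.197 (adjusted p = 0.0322). Without any 1 of the 4 lists at most 1 member promoter passed. Treatment and form cannot be told apart in these 4 lists.

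At 0 h the RAD21 line and WT differed at 4 of 9 member promoters, where 43.4% of all were called. S100A10 was higher by 0.64 ± 0.156 (adjusted p = 0.00669) and S100A11 by 0.54 ± 0.133 (adjusted p = 0.0071), and the shared peak of S100A1 and S100A13 was lower, with a difference of −0.696 ± 0.178 (adjusted p = 0.00877). Here too all lists of one group have one form of name and all lists of the other group the other. With form as a term, which again rests on the pair of WT 1 h replicates, none of these 4 passed, and S100A2 (−1.34 ± 0.197), S100A16 (−1.02 ± 0.201), S100A4 (−0.678 ± 0.246) and S100A6 (−0.596 ± 0.212) passed below 0. Line and form cannot be told apart.

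Merged regions are fewer and wider units, and 1 can span several promoters. In WT at 1 h, 2 of 8 regions were called, where 29.1% of all regions were. They held the promoters of S100A10 (151960088 to 151968156, 0.65 ± 0.129) and S100A11 (152006245 to 152009918, 0.433 ± 0.114). The same 2 made up the calls of the difference between lines, of 22.7% in all, at −0.758 ± 0.182 and −0.71 ± 0.161. The S100A3 to S100A6 region changed by 0.262 ± 0.13 in WT at 1 h (adjusted p = 0.146) and the CHTOP region by 0.536 ± 0.257 in the difference (adjusted p = 0.153).

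In WT at 10 h, 5 of 8 regions rose, where 18.3% of all did or fell. Besides the S100A10 region these were a region over S100A3, S100A4, S100A5 and S100A6 (153504553 to 153523533, 0.54 ± 0.13), the S100A2 region (153535713 to 153542093, 0.896 ± 0.292), the S100A14 and S100A16 region (153579535 to 153590721, 0.677 ± 0.221) and a region over the annotated 5′ end of the S100A11 gene (152020383). No transcript tagged basic starts at that end, so the region was not read as a promoter. That last region (152018455 to 152022068) had folds of 6.99 and 7.71 at WT 0 h, 6.66 and 32.3 at 1 h, 75.0 and 68.8 at 10 h, 34.5 and 32.8 in the RAD21 line at 0 h, and 50.9 and 30.1 there at 1 h. Its 10 h lists had the highest folds of the 10, also among the 7 lists named with input. None of the 5 passed with form as a term or without any 1 of the 4 lists.

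In the RAD21 line at 1 h, 1 of 8 regions was called, of 27.7% in all. It was the promoter of CHTOP (153605805 to 153608884, 0.667 ± 0.182, adjusted p = 0.0157), a gene of mRNA export just beyond S100A1. The S100A11 region, unlike its promoter, did not pass (−0.277 ± 0.114, adjusted p = 0.0866). At 0 h the lines differed at 4 regions, of 37.5% in all: the S100A10 and S100A11 regions were higher in the RAD21 line, and the S100A1 and S100A13 region (−0.552 ± 0.141) and that of CHTOP (−0.893 ± 0.182) were lower.

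No H3K4me1 region of the members was called. Of 17 tested, 0 passed in limma at 1 h, where 0.595% of 60476 did, and 0 at 10 h, where 0.638% did. At an unadjusted p under 0.05 there were 3 of 17 at 1 h, beside 9401 of 60476 in all, and 0 at 10 h, beside 5235, and with ranks by fold enrichment 0 passed at either time. The smallest p belonged at 1 h to an intergenic region beyond the 3′ end of S100A11 (152001021 to 152003011, −0.932 ± 0.281, adjusted p = 0.131). Next came the region over the S100A2 promoter (153531933 to 153551817, −0.492 ± 0.157, adjusted p = 0.148), that of CHTOP (153607399 to 153610271, −0.51 ± 0.22, adjusted p = 0.276) and one that reaches the 3′ end of S100A10 from beyond the gene (151938804 to 151955945, −0.249 ± 0.161, adjusted p = 0.487). At 10 h the smallest p again belonged to the region beyond S100A11 (−0.531 ± 0.281, adjusted p = 0.649), before the S100A1 and S100A13 region (153597067 to 153606497, 0.337 ± 0.184, adjusted p = 0.663).

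Gains and losses of whole peaks were few. A region counted as gained when both lists of one group called it and neither list of the other, and as lost in the opposite case. These counts have no test, since 2 lists against 2 cannot reach an exact p of 0.05. In WT at 1 h, 0 of 26 H3K27ac regions were gained, where 1.51% of all regions were, and 0 lost, where 1.32% were. In the RAD21 line at 1 h, 1 was gained (4.61% of all), between S100A2 and S100A16 at 153569824 to 153570426, and 1 lost (2.87% of all), beyond the 3′ end of S100A11 at 152001562 to 152002031. Between the lines at 0 h, 2 were gained in the RAD21 line (5.28% of all) and 0 lost (2.83% of all). For H3K4me1, 0 of 24 were gained at 1 h (3.3% of all) and 1 lost (1.75% of all), and at 10 h 0 were gained (2.63% of all) and 0 lost (2.29% of all).

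In WT at 10 h, 5 H3K27ac regions were gained, where 11.4% of all regions were, and 0 were lost, where 1.9% were. They comprised 3 regions in CHTOP, 1 upstream of S100A2 (153544334 to 153546102) and 1 further intergenic region. The CHTOP regions and the further intergenic region had folds of 3.16 to 4.62 at 10 h, and no list named without input called them. The 10 h lists differ from the 0 h lists in form of peak name and held more peaks (49127 and 46638 against 33976 and 32739). Time cannot be told apart from form and list size in these counts. The region upstream of S100A2 was called in all 7 lists named with input, at folds of 5.17 to 15.5, and in none of the 3 others, and it was also 1 of the 2 gained in the RAD21 line at 0 h.

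The promoters of genes whose proteins bind S100 proteins were read alongside, from a list of 16 of which 12 were tested. In WT at 1 h, MYH9 (1.20 ± 0.171), the myosin bound by S100A4, AHNAK (1.12 ± 0.277), a scaffold of the S100A10 and annexin A2 complex, ANXA1 (0.628 ± 0.227), the annexin bound by S100A11, and ANXA6 (0.684 ± 0.156) rose, and CACYBP (−0.97 ± 0.198), which binds S100A6, fell. ANXA2, the partner of S100A10, changed by 0.682 ± 0.332 at 1 h (adjusted p = 0.127) and rose by 1.27 ± 0.332 at 10 h with ANXA11 (1.42 ± 0.367). In the difference between the lines MYH9, AHNAK, ANXA1, ANXA6 and SUGT1, a further S100A6 partner, passed with values of −1.53 to −1.17, and FGF1, which is released with S100A13, passed with 1.10 ± 0.251. In the RAD21 line at 1 h 2 rose and 2 fell, and at 0 h 6 were higher and 1 was lower there than in WT. Every WT 10 h list differs from both WT 0 h lists in form of peak name, as does every RAD21 list. For these partners the 10 h treatment, and the line in the 0 h comparison, are therefore not separable from form. WT 1 h replicate 2 also differs in form from both WT 0 h lists. This enters the change in WT at 1 h and the difference between the lines. No partner values with form as a term or with ranks by fold are given here. With ranks by fold, 9 of 11677 promoters passed in WT at 1 h and 1 in the difference between the lines. The 12 partner promoters had 5 calls at 1 h and 2 at 10 h in WT, and 4 at 1 h in the RAD21 line. They had 7 between the lines and 6 in the difference. Of all promoters, 37%, 10.4%, 31.9%, 43.4% and 29% were called, in the same order. The list's median change was 0.454 in WT at 1 h and 0.0381 in the RAD21 line, against −0.0144 and 0.0533 over all promoters.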

How the data were processed

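ChIP-seq peak lists of 16 libraries (10 H3K27ac, 6 H3K4me1) were used, and the 10 input libraries were not analysed here. According to the study's methods and the submitters' processing notes, the authors trimmed reads with Trim Galore 0.6.6, mapped them to GRCh37 with Bowtie2 2.3.2 and called peaks per library with MACS2 2.2.7.1, narrow for H3K27ac and broad for H3K4me1. Replicates were not pooled. The deposited fold is the authors' ratio over the local background, and the peak caller gave the deposited −log10 p-value and the −log10 q-value. These depend on each library, so peaks were ranked within their list by −log10 p-value. Depth and counting error cannot be taken from the lists. Peaks of a mark that overlapped by 1 bp were merged into regions. Ranks were compared with limma 3.58.1 (lmFit, eBayes with a trend) in R 4.3.3, fitted over every region or promoter called in all lists of a mark, and checked on simulated data. Calls had an adjusted p-value under 0.05. Groups and replicate numbers came from the labels. Correlations of the deviations of same-numbered lists lay between −0.067 and 0.0628, so the numbers were not taken as pairs. The members, gene lists and tests were chosen with earlier results of these data known. The rule named all S100 genes, the 5 member regions with the smallest p in each comparison, 1 further region and called partners. Of the regions that did not pass, only the leading ones are printed, and 1 region is not reported here. The upstream S100A2 region and the epidermal genes were named after their values were seen. Alternatives were ranks by fold, a −log10 q-value of at least 5, features called in any list, the form of peak names as a term, flanks of 5 kb, an overlap of 200 bp, a replicate block and each list left out.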

Additional observations from a re-analysis of the deposited data

Results flagged for a closer look

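The H3K27ac rank of the S100A10 promoter changed by a different amount at 1 h of Nutlin-3a in the RAD21 line and in WT. The test of the difference (RAD21 line minus WT) gave −0.974903 on the normal-score scale (SE 0.22, limma adjusted p = 0.00726): both WT 1 h lists were above both 0 h lists, and both RAD21 1 h lists were below both 0 h lists.

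The S100A11 promoter differed in the same direction, with −0.960817 (SE 0.188, limma adjusted p = 0.00345) and the same order of lists. The 2 genes are neighbours, 29% of all promoters tested passed this test, and both calls were absent with ranks by fold enrichment. There the differences were −1.20 (adjusted p = 0.584) for S100A10 and −1.22 (adjusted p = 0.218) for S100A11 in limma, and 1 of 11677 promoters passed.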

How the results depend on the processing

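Of the recomputed counts of members, 144 were within 1.5 times the reported count and 74 were not, and no promoter reported as called changed direction. Promoters that were not called did with the form of the peak names as a term: at 10 h S100A2 went from 1.03 to −0.708, S100A16 from 0.883 to −0.473 and S100A4 from 0.693 to −0.29, and between the lines at 0 h S100A2 went from 0.403 to −1.34. The cause of the moved counts was not tested. With ranks by fold enrichment the called member regions numbered 0 (from 2) in WT at 1 h, 3 (from 5) in WT at 10 h, 0 (from 1) at 1 h in the RAD21 line, 2 (from 4) between the lines at 0 h and 0 (from 2) in the difference between the lines. The called member promoters likewise numbered 0 (from 2), 1 (from 3), 0 (from 1), 2 (from 4) and 0 (from 2). Where the members had 0, so had all 18757 regions, and of 11677 promoters 9, 23 and 1 passed. With the form of the peak names as a term the regions numbered 5 in WT at 1 h, 0 at 10 h, 4 at 1 h in the RAD21 line and 4 in the difference, and the promoters 5, 1, 3 and 4. Of all regions 32.1%, 4.39%, 41.8% and 32.2% passed, and of all promoters 43.5%, 7.71%, 48.6% and 41.8%. With features called in any list, 1 region was called in WT at 1 h and 2 at 1 h in the RAD21 line. When peaks needed a −log10 q-value of 5 or more, 3 regions were called in WT at 10 h. Under that setting 2 regions (from 5) were gained in WT at 10 h, 0 gained and 0 lost at 1 h in the RAD21 line, 1 (from 2) gained in the RAD21 line at 0 h, and 0 (from 1) H3K4me1 regions lost at 1 h. With flanks of 5 kb, 2 were gained in WT at 10 h, 0 at 1 h in the RAD21 line, and 0 H3K4me1 regions were lost at 1 h. The overlap of 200 bp moved none of these counts by more than 1.5 times.

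Without 1 list in turn, where the list left alone is assumed to vary like the other groups, the called regions ran from 1 to 5 in WT at 1 h, 0 to 0 at 10 h, 0 to 1 at 1 h in the RAD21 line, 2 to 3 between the lines at 0 h and 2 to 4 in the difference. The called promoters ran from 1 to 7, 0 to 1, 0 to 0, 2 to 3 and 2 to 6. In WT at 1 h and in the difference the highest region counts came without WT 1 h replicate 1 or replicate 2 and the highest promoter counts without replicate 1 (where 50.4% and 46.6% of all promoters passed), and the lowest counts in WT at 1 h came without WT 0 h replicate 1. In WT at 10 h each of the 4 lists lowered both counts, and at 1 h in the RAD21 line each list lowered the promoter count. Gained regions ran from 0 to 5 in WT at 1 h (5 without replicate 1), 5 to 6 at 10 h, 2 to 4 at 1 h in the RAD21 line and 2 to 5 between the lines (5 without RAD21 0 h replicate 1). Lost regions ran from 1 to 2 in the RAD21 line and 0 to 2 between the lines (2 without WT 0 h replicate 2). For H3K4me1, 0 to 2 were gained and 1 to 4 lost at 1 h, and 0 to 3 lost at 10 h, with the highest losses without 0 h replicate 2.

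The labels give the groups the same replicate numbers, but the numbers did not pair the lists. A replicate block gave 3 called promoters in WT at 1 h (from 2) and 5 between the lines at 0 h (from 4), and the same counts elsewhere. Peak lists without depth, 2 per group, limit what can be said of single promoters, and a feature counts only where the caller's threshold was passed.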
